A study of Mus musculus with 21 samples.

Results

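The 36 mature miRNAs described here come from the proximal end of the miRNA-rich Dlk1-Dio3 region, between Meg3 and Rian on mouse chromosome 12. They were picked by miRNA number (18 numbers) from the 1556 mature miRNA entries of the series, with no filter on their levels. Earlier results of these data were known when the numbers were chosen. All 36 were found in RefSeq, where 19 hairpin genes carry them over 54.6 kb at chr12:109563710-109618326 (GRCm38, the assembly also called mm10). By position they fall into 17 entries of the interval from Meg3 to Rtl1, 13 entries lying across Rtl1 and 6 entries of Rian.

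The series holds 21 small RNA libraries, 3 from each of 7 kinds of primary cell of C57BL/6J mice. Peritubular myoid (PTM) cells, Leydig cells, Sertoli cells and germ cells came from the testis and were isolated by methods published earlier. Smooth muscle cells of vessels (VSMC), intestine (ISMC) and trachea (TSMC), called smooth muscle-like in the design text, were bought from a supplier. All cells were untreated and grown in DMEM/F12 with 10% serum, and the labels give no age. Tissue and source therefore cannot be told apart between the testicular and the smooth muscle types. No label ties the replicates to different animals or cultures, so the p-values measure the spread between these samples, which may be technical.

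The Dlk1-Dio3 region is imprinted. The protein-coding genes Dlk1, Rtl1 and Dio3 are expressed from the chromosome inherited from the father, and the non-coding RNAs Meg3 and Rian, with the miRNAs on their strand, from the maternal one. Several miRNAs of the group are made from the strand opposite to Rtl1, a retrotransposon-derived gene needed in the placenta, and as perfect complements of its transcript they direct its cleavage. PTM cells are the contractile cells that wrap the seminiferous tubules, Leydig cells make testosterone, and Sertoli cells nurse the germ cells.

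The miRNAs that carry most of the values below are shown first, 5′ to 3′, from RefSeq (GRCm38.p6). Capitals mark the seed, bases 2 to 8, which pairs with targets. The first 4 lie on the strand opposite to an exon of Rtl1 and took most tags of the group:
miR-127-3p: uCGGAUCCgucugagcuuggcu
miR-433-3p: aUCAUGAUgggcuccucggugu
miR-434-3p: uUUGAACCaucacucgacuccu
miR-431-5p: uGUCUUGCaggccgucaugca
Their positions are chr12:109592888-109592909, chr12:109591781-109591802, chr12:109594565-109594586 and chr12:109590459-109590479, all on the plus strand. The next set belongs to the interval. There miR-770 lies in an exon of Meg3 on the same strand, and the others lie within no annotated gene of GENCODE, miRNA genes aside. Both arms of miR-673 are shown because their levels ran differently between types:
miR-770-3p: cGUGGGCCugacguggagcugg
miR-673-5p: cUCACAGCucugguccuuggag
miR-673-3p: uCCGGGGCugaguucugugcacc
miR-337-5p: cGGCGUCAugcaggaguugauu
miR-540-3p: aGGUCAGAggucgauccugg
miR-3070-2-3p: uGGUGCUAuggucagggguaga
They start at chr12:109563744-109563765 for miR-770-3p and end at chr12:109588648-109588669 for miR-3070-2-3p, with miR-673-5p at chr12:109572004-109572025. The last set lies in introns of Rian, on the same strand, from chr12:109611556-109611576 for miR-341-3p to chr12:109618305-109618326 for miR-370-3p:
miR-341-3p: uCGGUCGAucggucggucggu
miR-1188-5p: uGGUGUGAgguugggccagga
miR-370-3p: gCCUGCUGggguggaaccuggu

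Closeness on the chromosome did not go with a shared seed. Among all members 1 pair shared its seed (GGUGCUA), miR-3070-3p and miR-3070-2-3p. These differ at 2 of 22 bases, C9U and C10G, counted from the 5′ end with the base of miR-3070-3p first. Reads of such near copies can be split between them, and the rule for reads that match several entries is not given in the sources used here. 2 hairpins lie across another hairpin on the opposite strand. miR-3544-5p overlaps miR-337-3p by 21 bases and miR-3071-3p overlaps miR-136-5p by 20 bases, so these pairs are complementary over that length:
miR-136-5p: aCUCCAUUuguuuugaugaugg
miR-3071-3p: aUCAUCAAaacaaauggagucc

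The libraries held 18.1 to 26.1 M tags (M for 1e6), with 0.525 to 0.958 M mature miRNA tags in each germ cell library and 4.04 to 14.6 M in every other one. piRNAs, the small RNAs of the germ line, took 15.9% to 28.5% of germ cell tags and 1.15% to 2.92% elsewhere, and the germ cell list miR-34b, miR-34c and miR-449 took 25.8% to 33.0% of mature tags there, against at most 0.127% in any other library. The gonadal miR-202 made up 0.0152% to 0.122% of mature tags in testicular types and at most 0.000178% in smooth muscle types. The smooth muscle pair miR-143 and miR-145 did not set the smooth muscle types apart. It took 1.96% to 2.39% in PTM cells, 0.398% to 0.587% in Leydig cells, 2.94% to 4.58% in Sertoli cells, 0.063% to 0.458% in germ cells and 0.452% to 2.04% in the 3 smooth muscle types. Endothelial miR-126 took 0.00969% to 0.165% in testicular libraries and 0.34% to 0.388% in VSMC, 0.116% to 0.151% in ISMC and 0.0145% to 0.0248% in TSMC. The haematopoietic, epithelial and striated muscle lists each stayed at or below 0.109% in every library, with their highest values in PTM cells (0.092%), germ cells (0.0987%) and Sertoli cells (0.109%). The part of other cell types in the results was not tested.

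The share of the 36 miRNAs together differed by type, lowest in Sertoli and germ cells and highest in smooth muscle cells. Of mature tags they made up 1.06%, 0.852% and 1.09% in PTM cells, 2.14%, 2.50% and 2.23% in Leydig cells, 0.108%, 0.0888% and 0.0937% in Sertoli cells, and 0.105%, 0.400% and 0.297% in germ cells. In the smooth muscle types they took 6.20%, 7.89% and 7.45% in VSMC, 7.89%, 7.02% and 7.22% in ISMC, and 6.85%, 5.87% and 5.65% in TSMC. No smooth muscle library overlapped a testicular one, Leydig libraries were all above PTM libraries, and PTM libraries were all above Sertoli and germ cell libraries. In bulk samples, fewer cells that make these miRNAs and less of them per cell cannot be told apart. The entries across Rtl1 took the most in each type, 0.940 ± 0.118% in PTM cells, 2.13 ± 0.150% in Leydig cells, 0.0880 ± 0.0113% in Sertoli cells, 0.247 ± 0.140% in germ cells, 6.55 ± 0.809% in VSMC, 6.86 ± 0.504% in ISMC and 5.74 ± 0.618% in TSMC (SD, n = 3 each). The interval took 0.0487% in PTM cells, 0.127% in Leydig cells and 0.00700% in Sertoli cells, with 0.453% in VSMC. The Rian entries took 0.0129%, 0.0309% and 0.00188% in the same testicular types, with 0.173% in VSMC.

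**Figure D1:**
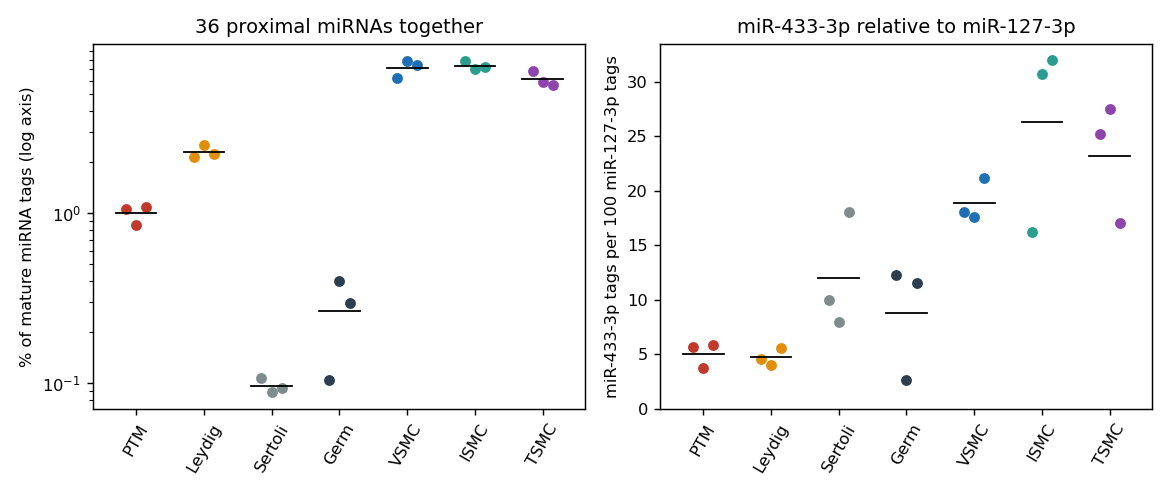
Left, percent of mature miRNA tags taken by the 36 miRNAs together (log axis). Right, miR-433-3p tags per 100 miR-127-3p tags. Points are libraries, lines are means of 3 libraries per type. The 9 smooth muscle libraries sit at 5.65% to 7.89%, Leydig libraries at 2.14% to 2.50%, PTM libraries at 0.852% to 1.09%, and Sertoli and germ cell libraries at 0.0888% to 0.400%.

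Levels of single miRNAs are given in CPM, counts per 1e6 mature tags after TMM scaling. Of the 36 entries, 29 had at least 10 counts in at least 3 libraries and were tested, together with 817 other miRNAs. The filter left out the 5p arms of miR-127, miR-540, miR-665, miR-3070 and miR-3071, with miR-3070-3p and miR-432. miR-432 had 0 counts in all libraries, and 5 of the 36 stayed below 10 counts in every library. The filter kept 13 of 17 interval entries, 10 of 13 entries across Rtl1 and 6 of 6 Rian entries.

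**Figure D2:**
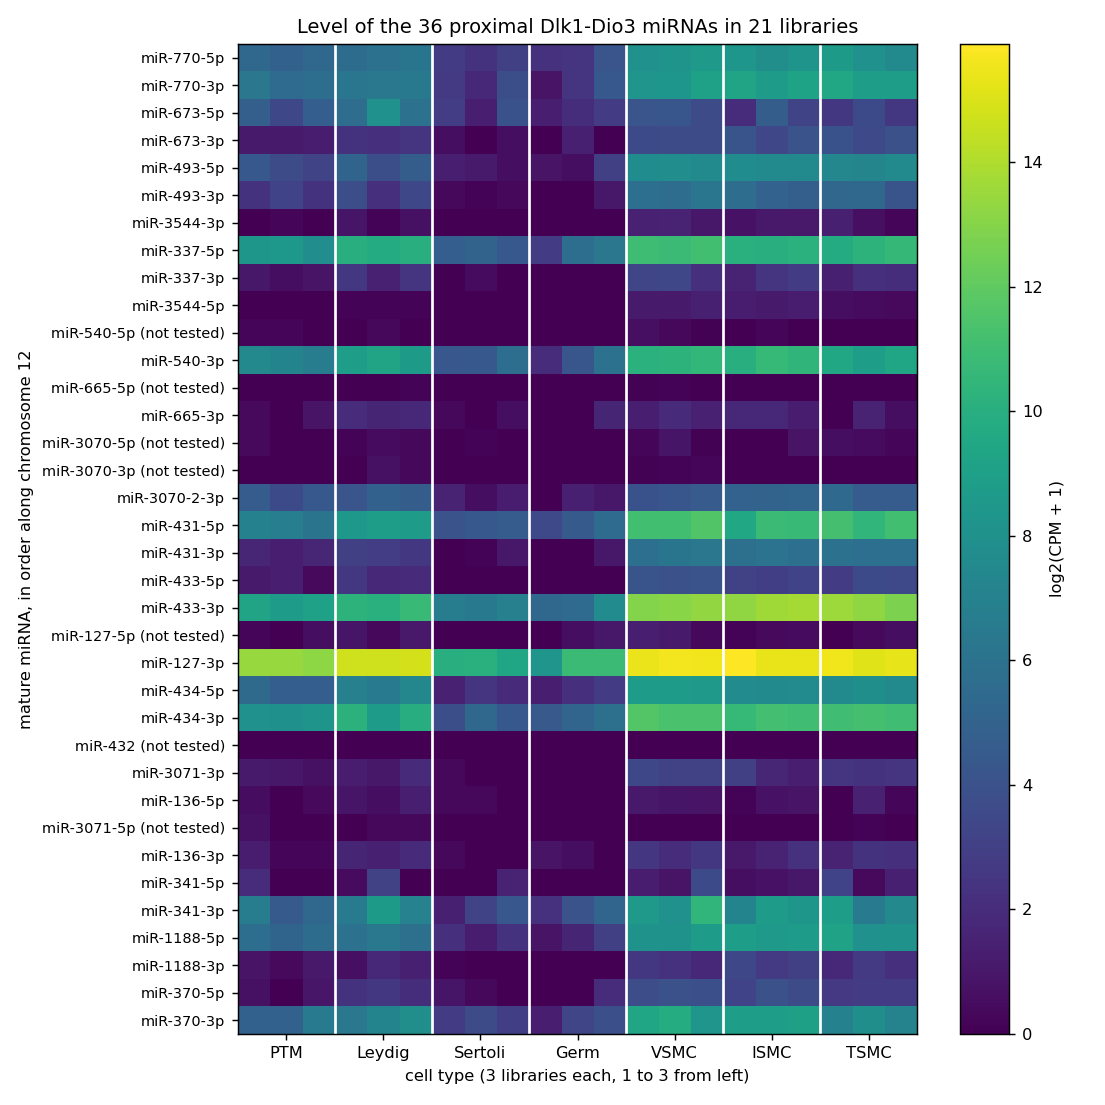
Level of each of the 36 miRNAs as log2(CPM + 1) in 21 libraries, with rows in order along chromosome 12 and 3 libraries per type from left to right. Most rows are brightest in VSMC, ISMC and TSMC, intermediate in Leydig and PTM cells and darkest in Sertoli and germ cells, while miR-673-5p is brightest in Leydig cells. Entries marked as not tested did not pass the count filter.

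miR-127-3p, one of the miRNAs antisense to Rtl1, was the most abundant. It had 11166, 11250 and 9402 CPM in PTM cells, 27194, 27356 and 29958 CPM in Leydig cells, 1000, 1082 and 655.4 CPM in Sertoli cells, and 318.3, 1791 and 1789 CPM in germ cells. It had 44053, 49503 and 48504 CPM in VSMC, 60979, 41974 and 42884 CPM in ISMC, and 48722, 35370 and 41307 CPM in TSMC. Only the Sertoli and germ cell libraries overlapped among the testicular types, and the ranges of the 3 smooth muscle types overlapped one another above all Leydig libraries. In order of mean level, ISMC, VSMC, TSMC and Leydig cells were not past the threshold between neighbours (adjusted p = 0.995, 0.850 and 0.337 in edgeR's quasi-likelihood test, adjusted over 846 miRNAs by Benjamini-Hochberg). The step between Leydig and PTM cells was (log2 difference 1.41 ± 0.44 SE, here and below the higher type minus the next in order, adjusted p = 0.0321), and so was the step between PTM and germ cells (3.03 ± 0.46, adjusted p = 1.4e-05), while germ and Sertoli cells were not (0.51 ± 0.43, adjusted p = 0.338).

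miR-433-3p, encoded 1 hairpin upstream of miR-127, came second. It had 630.7, 417.7 and 547.7 CPM in PTM cells, 1242, 1104 and 1665 CPM in Leydig cells, 99.7, 86.6 and 118.8 CPM in Sertoli cells, and 39.0, 46.8 and 205.6 CPM in germ cells. It had 7977, 8688 and 10265 CPM in VSMC, 9884, 12872 and 13740 CPM in ISMC, and 12267, 9744 and 7009 CPM in TSMC. Every smooth muscle library was above every Leydig library, and every Leydig library above every PTM library. VSMC and Leydig cells differed (log2 difference 2.75 ± 0.49, adjusted p = 2.2e-04 in edgeR's quasi-likelihood test). The step between Leydig and PTM cells missed the threshold (1.33 ± 0.47, adjusted p = 0.0563). It was past the threshold in 6 of 16 alternative fits (adjusted p of 0.00994 to 0.19 over all 16, from edgeR or DESeq2).

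miR-434-3p and miR-431-5p, also across Rtl1, were likewise highest in smooth muscle types by mean level, then in Leydig cells, then in PTM cells. miR-434-3p had 260.2, 255.7 and 302.1 CPM in PTM cells, 1163, 428.3 and 939.6 CPM in Leydig cells, 13.3, 39.6 and 20.1 CPM in Sertoli cells, and 21.02, 35.2 and 56.8 CPM in germ cells, against 1576 to 3167 CPM over the 9 smooth muscle libraries. miR-431-5p had 125.3, 108.6 and 68.1 CPM in PTM cells, 362.4, 483.7 and 445.1 CPM in Leydig cells, 16.0, 19.8 and 23.4 CPM in Sertoli cells, and 10.5, 21.6 and 46.5 CPM in germ cells, against 742.3 to 3125 CPM in smooth muscle libraries. For both, the Leydig, PTM and smooth muscle libraries formed 3 ranges without overlap, and Sertoli and germ cells overlapped. The opposite arm miR-431-3p, at 2.29, 1.56 and 2.29 CPM in PTM cells and 7.12, 6.29 and 5.10 CPM in Leydig cells, reached 54.0 to 79.4 CPM in smooth muscle libraries. Neither set of libraries came near the smooth muscle values.

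In the interval, the most abundant were miR-337-5p, miR-540-3p and miR-770-3p. miR-337-5p had 344.1, 354.9 and 224.4 CPM in PTM cells, 1039, 896 and 1017 CPM in Leydig cells, 26.2, 32.1 and 19.6 CPM in Sertoli cells, and 6.01, 52.6 and 78.5 CPM in germ cells, with 2016, 1801 and 2141 CPM in VSMC, 1100, 1065 and 1157 CPM in ISMC, and 874.1, 1223 and 1527 CPM in TSMC. Leydig and TSMC libraries overlapped here, and ISMC and Leydig cells were not past the threshold (log2 difference 0.17 ± 0.51, adjusted p = 0.834 in edgeR's quasi-likelihood test). miR-540-3p likewise had 475.1, 624.1 and 399.2 CPM in Leydig cells, within reach of 699.9, 466.5 and 638.5 CPM in TSMC, and 178.9, 140.6 and 99.1 CPM in PTM cells. Both overlaps rest on the TMM factors, 0.632 to 0.779 in Leydig libraries and 0.982 to 1.12 in TSMC libraries. As plain shares of mature tags, both miRNAs were lower in every Leydig library than in every TSMC library. miR-770-3p, from the Meg3 exon, behaved otherwise: its 79.1, 45.7 and 53.1 CPM in PTM cells overlapped 75.0, 81.2 and 85.4 CPM in Leydig cells, and both lay below 315.8 to 734.9 CPM in smooth muscle libraries. Its step between VSMC and Leydig cells was past the threshold (2.31 ± 0.64, adjusted p = 0.00706) and the one between Leydig and PTM cells was not (0.44 ± 0.61, adjusted p = 0.665).

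Of the Rian miRNAs, miR-1188-5p had 51.6, 33.9 and 47.7 CPM in PTM cells, 59.1, 80.7 and 57.7 CPM in Leydig cells, 3.38, 1.44 and 4.07 CPM in Sertoli cells, and 0.751, 2.10 and 7.23 CPM in germ cells, against 257.2 to 564.7 CPM in smooth muscle libraries. PTM and Leydig libraries lay next to each other without overlap (log2 difference of Leydig from PTM cells 0.57 ± 0.48, adjusted p = 0.454 in edgeR's quasi-likelihood test), and both were below all smooth muscle libraries. miR-370-3p had 29.0, 29.0 and 90.6 CPM in PTM cells, 77.3, 141.6 and 231.7 CPM in Leydig cells, 670.8, 906.6 and 307.2 CPM in VSMC, 473.1, 485.2 and 519.9 CPM in ISMC, and 128.2, 245.2 and 134.4 CPM in TSMC, so TSMC libraries overlapped Leydig ones. miR-341-3p varied widely among replicates, with 104.1, 21.4 and 40.0 CPM in PTM cells, 93.5, 405 and 130.6 CPM in Leydig cells, and 362.9, 257.4 and 1396 CPM in VSMC. None of its neighbouring types in order of level differed past the threshold.

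**Figure D3:**
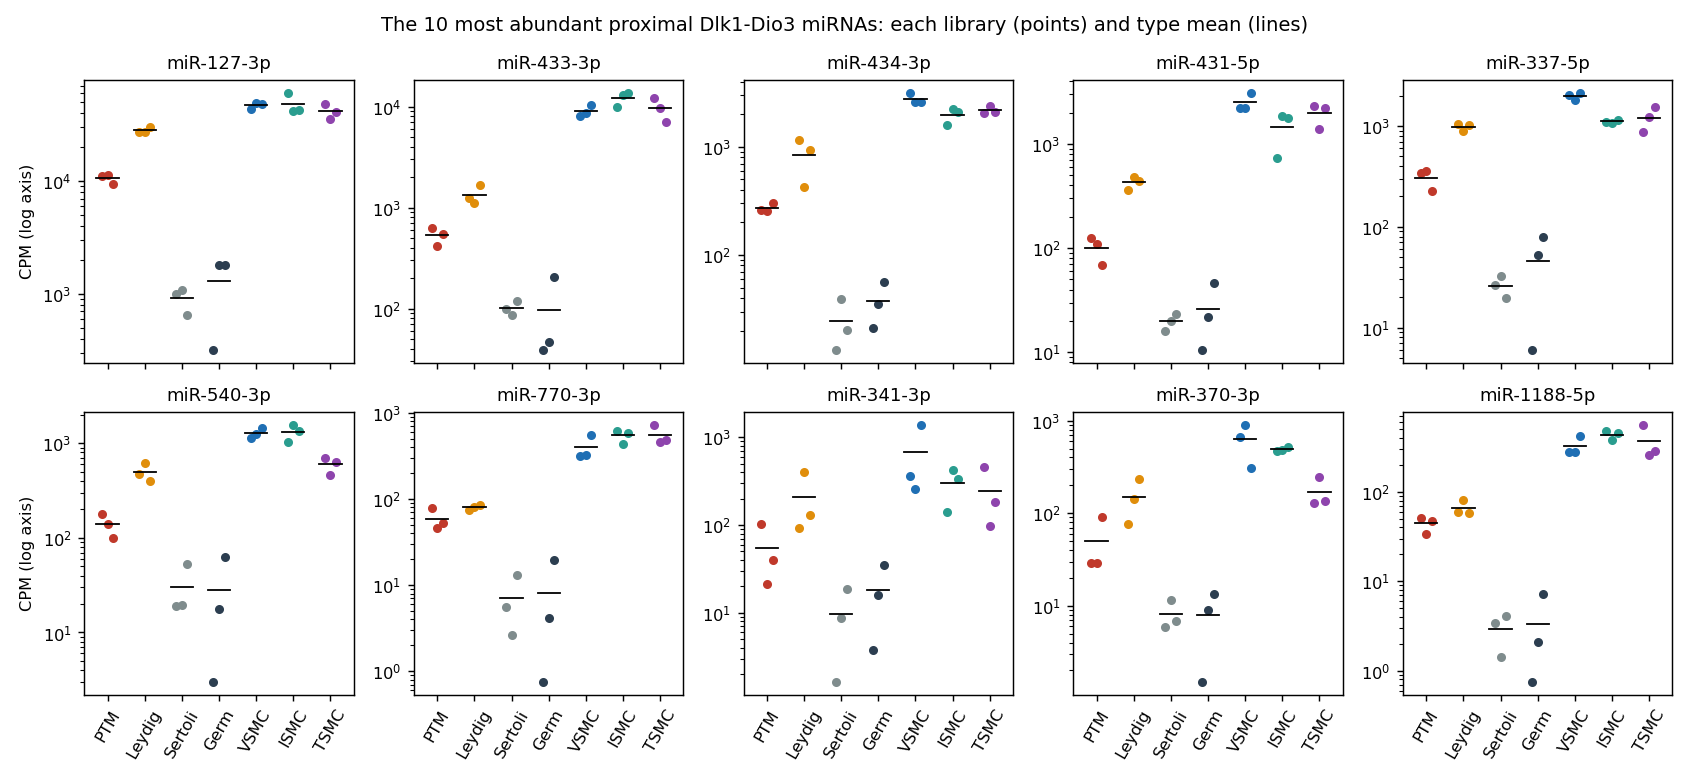
CPM (log axis) of the 10 miRNAs of the group with the highest mean level, in each library (points), with the mean of 3 libraries per type (lines). By mean, smooth muscle types lie highest in every panel and Sertoli and germ cells lowest, although single libraries cross for miR-337-5p, miR-540-3p, miR-341-3p and miR-370-3p, and PTM and Leydig points overlap for miR-770-3p, miR-341-3p and miR-370-3p. The crossing of Leydig and TSMC libraries for miR-337-5p and miR-540-3p is absent without TMM scaling.

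Among the 7 types, 27 of the 29 tested miRNAs differed in edgeR's quasi-likelihood F test (Benjamini-Hochberg), where 80.7% of all 846 tested did. miR-136-5p (adjusted p = 0.219) and miR-341-5p (adjusted p = 0.446), with 104 and 332 counts in all 21 libraries, were the exceptions. Comparisons of PTM cells with the other types share the PTM libraries, so their results are not independent of one another. The values of each are given on the log2 scale, PTM cells minus the other type.

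Against Leydig cells, PTM cells had lower levels of 10 of the 29 miRNAs and higher levels of 0, in a comparison where 8.75% of all tested miRNAs were lower and 7.8% higher. The 10 were miR-127-3p (−1.41 ± 0.44, adjusted p = 0.0321), miR-337-3p and miR-337-5p, miR-370-5p (−2.92 ± 0.80, adjusted p = 0.0151), miR-431-5p, miR-433-5p, miR-434-3p, miR-434-5p (−1.96 ± 0.43, adjusted p = 0.0027), miR-540-3p and miR-673-5p (−2.56 ± 0.80, adjusted p = 0.0331; edgeR's quasi-likelihood test, Benjamini-Hochberg). By position these were 4 of 13 in the interval, 5 of 10 across Rtl1 and 1 of 6 in Rian. All 29 fold changes were below 0, the weakest at −0.40 for miR-3070-2-3p, with a median of −1.66, against −0.06 over all tested miRNAs. The count depended on single libraries: 5, 2 and 5 were called without PTM library 1, 2 or 3, and 4, 6 and 5 without Leydig library 1, 2 or 3. The share of all tested miRNAs called lower went down in the same fits, to 5.92%, 4.74% and 4.38% without a PTM library and 3.82%, 6.44% and 6.07% without a Leydig library. miR-127-3p lost its call in each of these 6 fits, with fold changes of −1.47 to −1.33, and so did miR-337-5p and miR-540-3p.

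Against Sertoli cells, PTM cells had higher levels of 18 of 29 miRNAs and lower levels of 0, where 9.93% of all tested miRNAs were higher and 1.42% lower. The median was 2.61 (2.66 over 27, with miR-433-5p at its lower bound and 2 miRNAs left out because they had at most 3 counts in either type), against 0.20 over all tested. miR-493-3p had 4.12, 7.995 and 4.08 CPM in PTM cells against 0.250, 0.131 and 0.254 CPM in Sertoli cells, groups without overlap (4.60 ± 0.74, adjusted p = 9.8e-05 in edgeR's quasi-likelihood test). miR-1188-5p followed (3.92 ± 0.55, adjusted p = 2.8e-05). miR-433-5p, the minor arm of miR-433, had 8, 9 and 2 counts in PTM cells and 0 in the 3 Sertoli libraries, which makes it at least 6.72-fold higher in PTM cells with a floor of 3 counts over the group (edgeR adjusted p = 9.4e-04).

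Against germ cells, PTM cells had higher levels of 19 of 29 and lower levels of 0, where 40.8% of all tested miRNAs were higher and 16.2% lower. The median of 2.76 (2.39 over 26, with 5 miRNAs absent from germ cells at their lower bound and 3 without a usable bound left out) has to be read against 1.79 over all tested miRNAs, a shift that scaling moved between 0.64 (mature totals) and 4.09 (tags of all classes). miR-1188-5p (3.83 ± 0.59, adjusted p = 1.6e-05) and miR-127-3p (3.03 ± 0.46, adjusted p = 1.4e-05) were among the 19 in edgeR's quasi-likelihood test. miR-433-5p, miR-3071-3p and miR-1188-3p had 19, 18 and 14 counts in PTM cells and 0 in germ cells, but the lower germ cell depth allows bounds of only 1.44-, 1.37- and 1.06-fold. Between Sertoli and germ cells 0 of the 29 differed, where 50.4% of all tested miRNAs did. At an unadjusted p under 0.05 it was 0 of the 29 as well, where 55.4% of all tested miRNAs were. The median of Sertoli minus germ cells was −0.09 over the 29, against 1.14 over all tested. This comparison was not refitted with other scalings, which can move it. The group took 0.267% of mature tags in germ cells and 0.0968% in Sertoli cells, but 0.00869% and 0.0380% of tags of all classes.

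Against each smooth muscle type, PTM cells had lower levels of most of the group and higher levels of 0. The counts were 24 of 29 against VSMC (18% of all tested miRNAs lower, 25.2% higher), 24 against ISMC (17.1% lower, 23.4% higher) and 22 against TSMC (17.1% lower, 22.8% higher). Median differences were −3.18, −2.85 and −2.54, against 0.29, 0.14 and 0.21 over all tested miRNAs. miR-431-3p was among the 3 with the largest change each time (−5.07 ± 0.66 against VSMC, −4.85 ± 0.65 against ISMC and −4.77 ± 0.65 against TSMC, edgeR adjusted p = 2.6e-06, 4.6e-06 and 6.4e-06). miR-431-5p differed by −4.64 ± 0.53 from VSMC (adjusted p = 7.0e-07) and miR-433-3p by −4.52 ± 0.54 from ISMC (adjusted p = 1.5e-06). miR-3544-5p, on the strand opposite to miR-337, had 0 counts in PTM cells and 17, 20 and 19 in VSMC, which makes it at least 8.21-fold higher in VSMC, and it was at least 8.26-fold higher in ISMC and 2.49-fold in TSMC.

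The miRNAs not past the threshold against any smooth muscle type were miR-673-5p, miR-3070-2-3p, miR-665-3p, miR-136-5p and miR-341-5p. Of these only miR-673-5p and miR-3070-2-3p had a mean above 3 CPM in PTM cells. miR-3070-2-3p had 23.8, 10.8 and 19.4 CPM in PTM cells and 17.1, 29.3 and 25.1 CPM in Leydig cells, against 15.2, 17.7 and 22.7 CPM in VSMC. It had 30.7, 31.9 and 35.7 CPM in ISMC and 41.6, 24.0 and 23.9 CPM in TSMC, with 2.003, 0.524 and 1.27 CPM in Sertoli cells. PTM libraries overlapped VSMC libraries (−0.04 ± 0.49, adjusted p = 0.992) and lay below ISMC and TSMC by less than the test resolved (−0.86 ± 0.49, adjusted p = 0.176, and −0.73 ± 0.49, adjusted p = 0.251). Against Sertoli cells it was among the 18 higher miRNAs (3.81 ± 0.57, adjusted p = 5.9e-05 in edgeR's quasi-likelihood test).

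Leydig cells stood far above Sertoli cells. Of the 29, 26 were higher in Leydig cells and 0 lower, where 16.5% of all tested miRNAs were higher and 8.87% lower, and the median difference was 4.25 (4.23 over 28, with 2 at their lower bound and 1 without a usable bound left out), against 0.11 over all tested. miR-434-5p had 121.1, 90.9 and 160.1 CPM in Leydig cells against 1.75, 4.59 and 2.80 CPM in Sertoli cells. The groups did not overlap (5.34 ± 0.50, adjusted p = 7.2e-08 in edgeR's quasi-likelihood test). miR-493-3p differed by 5.29 ± 0.74 (adjusted p = 5.5e-06), and miR-433-5p, with 84 counts in Leydig cells and 0 in Sertoli cells, was at least 23.2-fold higher.

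Against the smooth muscle types, Leydig cells had lower levels of 15 of 29 miRNAs for VSMC (13.4% of all tested lower), 13 for ISMC (13.5% lower) and 11 for TSMC (11.5% lower). miR-431-3p (−3.48 ± 0.60 against VSMC) and miR-493-5p (−3.12 ± 0.58) differed most among those with over 10 CPM in VSMC. miR-127-3p was not past the threshold against any of them, although all Leydig libraries lay below all smooth muscle libraries. Only miR-673 was refitted in these comparisons, so whether the other calls and non-calls hold under other scalings was not tested. Scaling moved the values for miR-673-3p against VSMC, from −1.52 as reported to −2.14 with mature totals and −2.35 with tags of all classes. 1 member was higher each time, miR-673-5p, among 21.5%, 22.9% and 22.1% of all tested miRNAs higher.

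**Figure D4:**
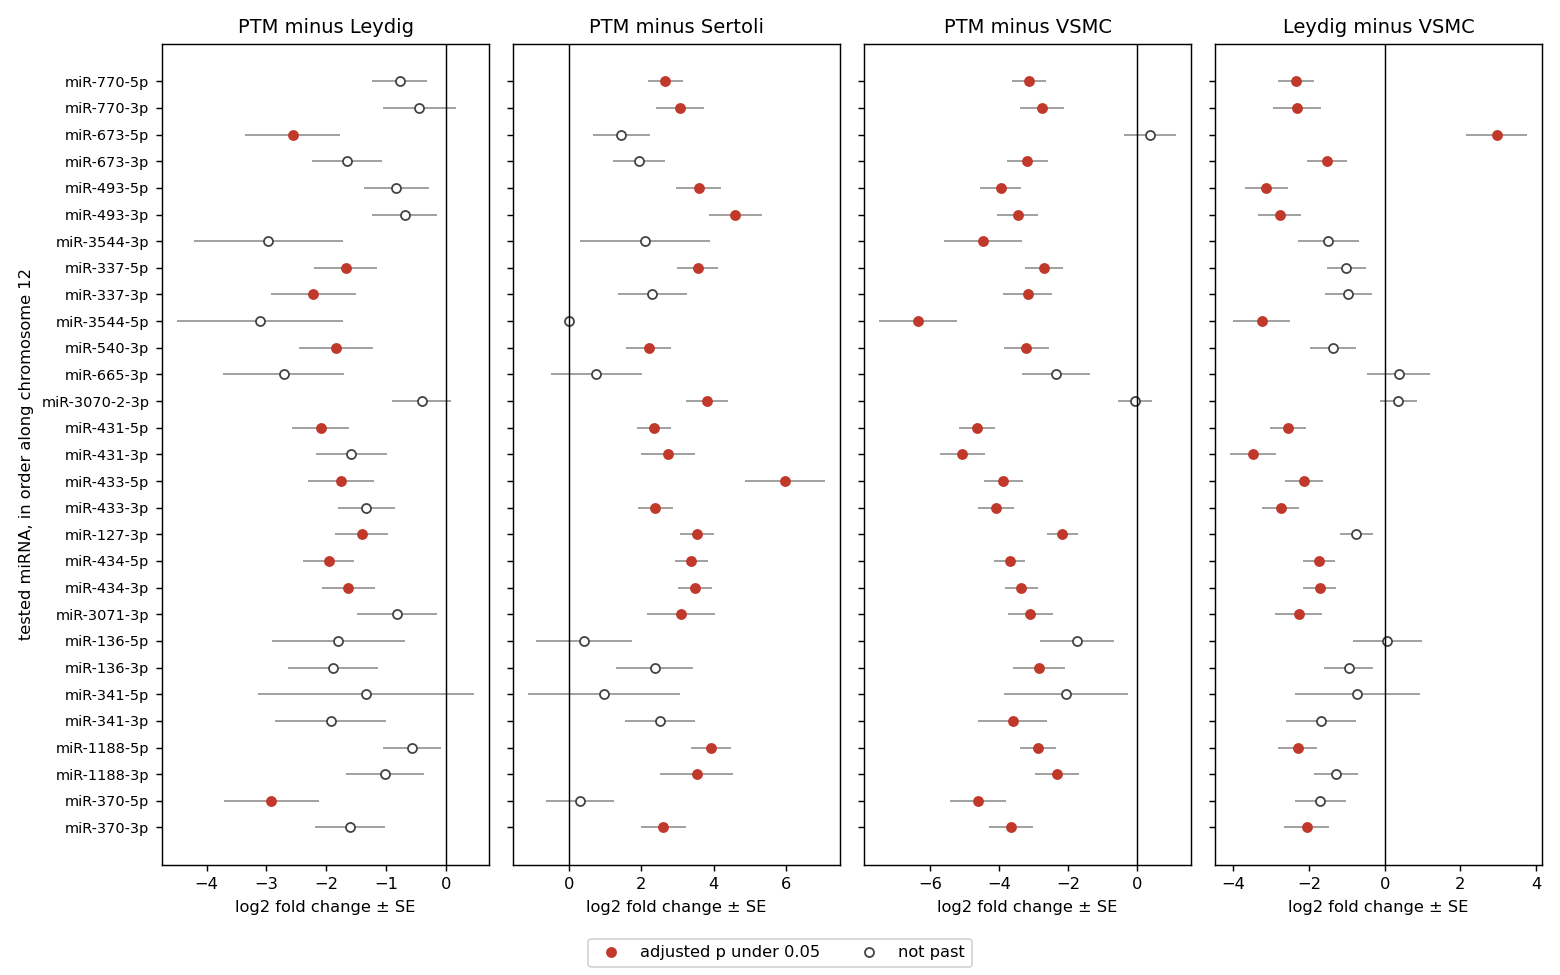
Log2 fold change with its standard error for the 29 tested miRNAs, in order along chromosome 12, in 4 comparisons (first type minus second type). Filled points have an adjusted p under 0.05. All points lie left of 0 in PTM minus Leydig, none lies left of 0 in PTM minus Sertoli, and in Leydig minus VSMC miR-673-5p is the filled point right of 0. Fold changes of miRNAs absent from a type depend on the prior count of the fit.

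Among the smooth muscle types the test separated none of the 29. The counts were 0 between VSMC and ISMC (1.3% of all tested miRNAs called), 0 between VSMC and TSMC (3.31%) and 0 between ISMC and TSMC (0.946%). At an unadjusted p under 0.05 edgeR had 2, 4 and 2 of 29, where 13.4%, 22% and 9.34% of all tested miRNAs were. DESeq2 called 1 of 29 higher in VSMC than in ISMC (2.18% of all), 3 higher in VSMC than in TSMC (5.57% of all) and 0 between ISMC and TSMC. The 2 between VSMC and ISMC were miR-434-5p, with 428.0, 443.7 and 368.9 CPM in VSMC and 199.9, 191.7 and 206.4 CPM in ISMC, and miR-433-5p. VSMC libraries were all above ISMC libraries for miR-434-5p, yet the difference did not pass the adjustment (1.05 ± 0.41, adjusted p = 0.275). miR-370-3p differed most between VSMC and TSMC (1.89 ± 0.60, adjusted p = 0.0847) and was called in 5 of the alternative fits.

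By share of mature tags, the 72 entries further along the region were also highest in smooth muscle cells and lowest in Sertoli cells, with VSMC above ISMC. For the 36 miRNAs, VSMC and ISMC libraries overlapped in that share. Their mean was higher in ISMC by mature tags and higher in VSMC by tags of all classes (4.20% against 3.18%). Of mature tags the 72 entries took 0.240 ± 0.0385% in PTM cells, 0.700 ± 0.0298% in Leydig cells, 0.0258 ± 0.00152% in Sertoli cells, 0.0790 ± 0.0383% in germ cells, 2.55 ± 0.102% in VSMC, 1.97 ± 0.144% in ISMC and 1.63 ± 0.110% in TSMC. Of the 65 tested, 34 were lower in PTM than in Leydig cells, where 8.75% of all tested miRNAs were. PTM cells had 51 higher than in Sertoli cells (9.93% of all) and 62 lower than in VSMC (18% of all). The proximal counts were 10, 18 and 24 of 29, and the difference between both stretches was not tested.

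The mix of miRNAs within the group also changed with the type. miR-127-3p made up 86.2 ± 1.73% of the group's tags in PTM cells and 84.9 ± 0.267% in Leydig cells, against 69.6 ± 2.17%, 69.6 ± 7.45% and 70.1 ± 2.85% in VSMC, ISMC and TSMC. For every 100 miR-127-3p tags there were 5.65, 3.71 and 5.83 miR-433-3p tags in PTM cells, 4.57, 4.03 and 5.56 in Leydig cells, 18.1, 17.6 and 21.2 in VSMC, 16.2, 30.7 and 32.0 in ISMC, and 25.2, 27.5 and 17.0 in TSMC. Every smooth muscle library lay above every PTM and Leydig library. This ratio of neighbours within a library does not depend on scaling. Sertoli cells had 9.96, 8.0 and 18.1, and germ cells 12.3, 2.61 and 11.5, on far fewer tags.

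For most hairpins 1 arm held nearly all tags. The 5p arm took 99.6% of miR-337 tags, 98.6% of miR-1188 tags and 97.1% of miR-431 tags over all libraries, and 0.121% of miR-433 tags, 0.0162% of miR-540 tags and 0.00156% of miR-127 tags. Both arms were sizeable for miR-770 (38.5% 5p), miR-493 (80.7%) and miR-673 (78.3%). The ratio of arms differed among types for 3 of the 8 hairpins with enough tags in limma's F test (miR-127, adjusted p = 8.8e-05; miR-540, adjusted p = 2.5e-06; miR-433, adjusted p = 0.0074), where 39.2% of 181 hairpins did. The minor arms of miR-127 and miR-540 had 80 and 19 counts in all 21 libraries, so their ratios were set by the pseudocount and by the depth of the major arm. With hairpins kept only where the minor arm had at least 10 counts in at least 9 libraries, 1 of 6 remained called, miR-433 (adjusted p = 0.00732), where 39.7% of hairpins were. miR-433-5p had 0 counts in all 6 Sertoli and germ cell libraries, so their ratios too were set by the pseudocount and the depth of the 3p arm. With these 6 libraries also left out, a test added after the values were seen, miR-433 was not past the threshold (adjusted p = 0.0948) and miR-673 was the 1 of 9 hairpins called (limma adjusted p = 0.00121), where 18.2% of 132 were. The 5p arm of miR-433 took 0.193%, 0.373% and 0.0596% in PTM cells and 0.406%, 0.230% and 0.176% in Leydig cells, against 0.203%, 0.164% and 0.155% in VSMC and 0.0797%, 0.0513% and 0.0597% in ISMC, and 0.0482%, 0.114% and 0.15% in TSMC. VSMC libraries were all above ISMC and TSMC libraries, TSMC libraries lay on both sides of the ISMC range, and PTM libraries lay on both sides of the VSMC range.

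miR-673 was the hairpin whose arms ran apart, and it was singled out after its values were seen. miR-673-5p had 26.7, 9.91 and 26.0 CPM in PTM cells and 49.8, 259.8 and 60.8 CPM in Leydig cells, against 17.7, 17.9 and 12.1 CPM in VSMC, 3.14, 25.2 and 8.47 CPM in ISMC, and 5.07, 10.8 and 5.01 CPM in TSMC. All Leydig libraries lay above all smooth muscle libraries, and PTM libraries overlapped all 3 smooth muscle types. Leydig cells exceeded VSMC (2.96 ± 0.81, adjusted p = 0.00706), ISMC (3.33 ± 0.83, adjusted p = 0.00363) and TSMC (4.14 ± 0.86, adjusted p = 8.5e-04) in edgeR's quasi-likelihood test. Without Leydig library 2, the highest, the differences were 1.88 (adjusted p = 0.0656), 2.14 (adjusted p = 0.0387) and 2.92 (adjusted p = 0.00716).

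The 3p arm of the same hairpin had the order of the rest of the group. miR-673-3p had 1.22, 1.22 and 1.31 CPM in PTM cells and 4.10, 3.61 and 4.20 CPM in Leydig cells, against 10.86, 11.56 and 11.96 CPM in VSMC, 16.2, 9.65 and 15.9 CPM in ISMC, and 15.2, 10.1 and 14.1 CPM in TSMC. The 3 sets of libraries did not overlap. Leydig cells were lower than VSMC (−1.52 ± 0.54, adjusted p = 0.0317, a call lost when any 1 of the 6 libraries was left out), ISMC (−1.80 ± 0.54, adjusted p = 0.0133) and TSMC (−1.72 ± 0.54, adjusted p = 0.0185). The 5p arm thus took 95.6%, 89.1% and 95.2% of miR-673 tags in PTM cells and 92.4%, 98.6% and 93.5% in Leydig cells. In the smooth muscle types it took 61.9%, 60.8% and 50.2% in VSMC, 16.2%, 72.3% and 34.7% in ISMC, and 25.0%, 51.7% and 26.3% in TSMC. All 6 PTM and Leydig libraries were above all 9 smooth muscle libraries. The hairpin had too few tags in Sertoli and germ cells for the arm test over at least 6 types. In the test with at least 5 types, added after the values were seen, 4 of 12 hairpins of the group were called (35.6% of all), miR-673 among them (limma adjusted p = 2.5e-04).

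**Figure D5:**
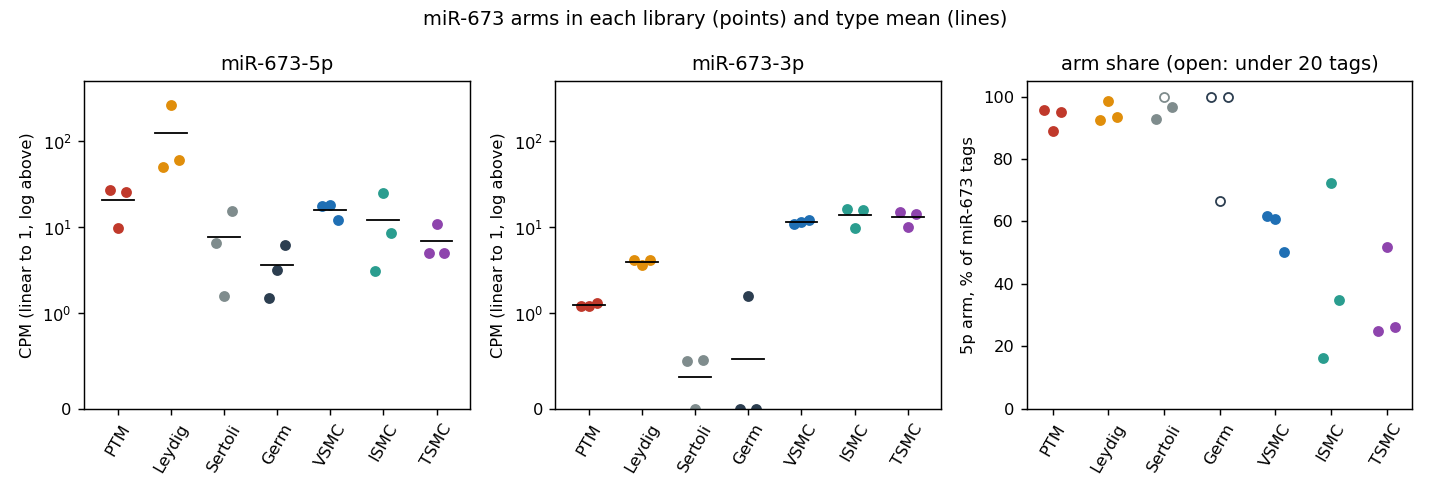
CPM of miR-673-5p (left) and miR-673-3p (middle) in each library (points) with the mean per type (lines), on an axis linear to 1 and logarithmic above. Right, share of the 5p arm in miR-673 tags in each library (points). Leydig libraries are highest for the 5p arm and smooth muscle libraries for the 3p arm, so the 5p share is 89.1% or more in PTM and Leydig libraries and 72.3% or less in smooth muscle libraries. Open points have under 20 tags.

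The pairs that lie across each other on opposite strands stayed low on at least 1 side. miR-337-5p averaged 1986 CPM in VSMC, while miR-3544-3p, which overlaps it by 17 bases, had 1.75, 1.89 and 1.02 CPM there and 0, 0.174 and 0 CPM in PTM cells. At Rtl1, miR-3071-3p had 1.22, 1.04 and 0.653 CPM in PTM cells and 10.0, 7.51 and 7.72 CPM in VSMC, above its partner miR-136-5p with 0.458, 0 and 0.327 CPM in PTM cells and 1.12, 0.884 and 0.764 CPM in VSMC. miR-3071 lies on the same strand as Rtl1, and miR-136 on the opposite one. PTM libraries were below VSMC libraries for miR-3071-3p (−3.09 ± 0.66, adjusted p = 7.9e-04 in edgeR's quasi-likelihood test) and not past the threshold for miR-136-5p (−1.73 ± 1.08, adjusted p = 0.217).

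As a description, levels over the 21 libraries were set beside those of miR-127-3p (Pearson correlation of log2(CPM + 1), where the points share 7 types and their depths). The 28 other tested members had a median correlation of 0.904, against 0.181 over 817 other miRNAs, with the highest value for miR-337-5p (0.989) and the lowest for miR-673-5p (0.420) and miR-341-5p (0.423). The 5 miRNAs outside the group most like miR-127-3p were miR-411-5p (0.990), miR-543-5p (0.988), miR-154-5p (0.987), miR-541-5p (0.986) and miR-382-5p (0.986), and all 5 lie further along the same region.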

How the data were processed

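The deposited table, made by the authors, holds read counts and TPM for 61628 small RNA entries in 21 libraries. Per the submitters' processing notes, Bowtie2 and mm10 were used; for multiply matching reads no rule is stated there. The deposited TPM values, scaled by the authors to tags of all classes, were not tested. Counts of mature entries reaching 10 in 3 or more libraries (846) were tested as deposited in edgeR 4.0.16 (R 4.3.3), with TMM and robust quasi-likelihood tests, 1 fit over all libraries with a coefficient for each type (common dispersion 0.299, 14 residual degrees of freedom), and Benjamini-Hochberg adjustment over 846 in each comparison at 0.05. Arm ratios, log2((5p + 0.5)/(3p + 0.5)) at 20 or more counts per library, were tested with limma 3.58.1, which pools the spread over hairpins. Scripts were tested on simulated data. Sequences and coordinates are from RefSeq, and host genes from GENCODE, on GRCm38. No library was a duplicate of another: replicates of a type differed beyond counting noise.

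The members and lists were chosen with earlier results of these data known. Named were the 10 most abundant members, the 3 largest changes per direction in each comparison, members called against the majority, and hairpins called in the arm test or with the most unequal arms. The comparisons of Leydig with smooth muscle cells and of Sertoli with germ cells, the full list of 10 against Leydig cells, the remarks on miR-673, miR-3070-2-3p, miR-434-5p, miR-370-3p and the overlapping pairs, scaling outside the region, and the further arm tests were added after values were seen. Alternatives were other scalings, filters, DESeq2 1.42.0, fewer types, a replicate block and leaving out each library.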

Additional observations from a re-analysis of the deposited data

How the results depend on the processing

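Over 1782 refits of single named miRNAs, 49 lost and 26 gained a call. Where there was a call as reported or in the refit, 0 changed direction. Without a call some did, such as miR-673-5p between PTM cells and VSMC (0.39 as reported, −0.64 to 0.81 in refits). Leydig cells were compared with smooth muscle cells in refits for miR-673 alone, and Sertoli with germ cells in none. Between PTM and Leydig cells the 10 lower calls became 2 to 6 when 1 library was left out, and 6 with the replicate number as a block (of all tested miRNAs, 8.75% were lower as reported, 3.82% to 6.44% with 1 library left out and 6.97% with the block). The labels do not say what the numbers share. Deviations of same-numbered libraries from their type means had correlations of −0.283 to 0.357, all 3 above 0.1 in 1 of 21 pairs of types. With 3 libraries per type, these values cannot tell whether such libraries share more than a number. Between VSMC and TSMC, where 0 were called, 2 of 29 were higher in VSMC with tags of all classes as library size, 3 without germ cells, 4 with these types alone, 3 in DESeq2 and 2 with scaling outside the region, while the share of all tested miRNAs higher was 1.18% in the test as reported and 4.49%, 6.46%, 9.32%, 5.57% and 7.8% in these. With only the types compared in the fit, 3 of 28 were higher and 1 lower in VSMC than in ISMC (6.04% and 8.25% of all), 2 of 26 higher in ISMC than in TSMC (2.48% of all), and 1 (miR-673-5p) higher in PTM cells than in TSMC (32.8% of all); DESeq2 called 1 of 29 higher in VSMC than in ISMC (2.18% of all). The arm test fell to 1 call of 6 with a minimum on the minor arm, and to 1 of 9, another hairpin, with Sertoli and germ cells left out as well. Of tags of all classes the group took 0.375% in PTM cells, 1.15% in Leydig cells, 0.0380% in Sertoli cells, 0.00869% in germ cells, 4.20% in VSMC, 3.18% in ISMC and 2.31% in TSMC, so the orders of Sertoli and germ cells and of VSMC and ISMC both turned. The cause of these changes was not tested. Leave-one-out counts follow for the other comparisons, with the share of all tested miRNAs called in that direction. Higher in PTM cells were 13 to 18 against germ cells (26.4% to 38.3% of all) and 15 to 17 against Sertoli cells (9.04% to 10.5%). Lower in PTM cells were 23 to 25 against VSMC (15.4% to 17.2%), 20 to 23 against ISMC (14.7% to 16.3%) and 19 to 22 against TSMC (13.3% to 16.4%). Higher in Leydig than in Sertoli cells were 24 to 26 (13.5% to 18.3%). Germ cell depth limits what low miRNAs can show.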
